A study of Homo sapiens with 6 samples.

Results

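The genes of the LIN28, IGF2BP and let-7 axis were followed in TF-1 cells, a cytokine-dependent human line of erythroleukaemic origin, which the labels list under acute myeloid leukaemia. The set held 10 genes, LIN28A, LIN28B, IGF2BP1, IGF2BP2, IGF2BP3, TRIM71, DIS3L2, TUT4, TUT7 and DICER1, of 18377 genes measured. They were chosen by name, with earlier results of these data known. Each was read from the probe set annotated to it alone, the brightest over all arrays where a gene had more than 1. All 10 were measured, on 11 probe sets, since LIN28A had 2. No filter on low values was applied, so all 10 entered the test.

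The cells had been transfected with a control vector, which the labels name pEGFP (3 arrays, numbered 1 to 3), or with human PRL-3, the phosphatase encoded by PTP4A3 (3 arrays, numbered 4 to 6). Both groups were kept in 90% RPMI, 10% fetal bovine serum and 5 ng/ml human interleukin-3, and 100 ng of total RNA was labelled for each array. The series asked what PRL-3 does in leukaemogenesis. The labels do not say whether the cells were a clone or a pool, nor whether a group's arrays stand for separate cultures. The p-values therefore cover the spread among these 6 arrays alone, and that spread may be technical.

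LIN28A and LIN28B are RNA-binding proteins that hold back the maturation of let-7 microRNAs, a family that represses growth and fetal genes. LIN28 proteins bind the loop of the let-7 precursor. In the route best described for LIN28A, the uridylyltransferases TUT4 and TUT7 tail the bound precursor, and the exonuclease DIS3L2 degrades it. Whether LIN28B acts through these enzymes in TF-1 cells was not tested. An untouched precursor is cut to mature let-7 by DICER1. The mRNAs of LIN28B, IGF2BP1, IGF2BP2, IGF2BP3, TRIM71 and DICER1 are themselves known let-7 targets, and LIN28B and IGF2BP1 are best known in blood from fetal progenitors.

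The mature let-7 sequences are shown because the steps above act on their precursors. RefSeq (build GRCh38.p14) lists 12 precursor hairpins of the family, which give 9 different 5p sequences of 22 bases. All 9 share 1 seed, bases 2 to 8, in capitals.
let-7a-5p: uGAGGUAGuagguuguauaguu
let-7b-5p: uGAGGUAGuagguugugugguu
let-7c-5p: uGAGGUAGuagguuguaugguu
let-7d-5p: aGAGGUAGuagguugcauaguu
let-7e-5p: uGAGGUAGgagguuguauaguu
let-7f-5p: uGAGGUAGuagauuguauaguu
let-7g-5p: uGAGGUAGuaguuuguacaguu
let-7i-5p: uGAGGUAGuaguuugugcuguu
miR-98-5p: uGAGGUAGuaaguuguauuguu

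LIN28 proteins are known to contact GGAG in the precursor's loop, so the 36 bases that follow the 5p arm are given for 11 of the hairpins, 5′ to 3′, with GGAG in capitals.
MIRLET7A1: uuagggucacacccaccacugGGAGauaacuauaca
MIRLET7A2: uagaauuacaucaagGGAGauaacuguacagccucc
MIRLET7A3: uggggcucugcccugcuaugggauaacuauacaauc
MIRLET7B: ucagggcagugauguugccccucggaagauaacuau
MIRLET7C: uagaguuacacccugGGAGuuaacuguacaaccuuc
MIRLET7D: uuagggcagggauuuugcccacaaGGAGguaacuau
MIRLET7E: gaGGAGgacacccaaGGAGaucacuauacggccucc
MIRLET7F1: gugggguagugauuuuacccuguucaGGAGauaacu
MIRLET7F2: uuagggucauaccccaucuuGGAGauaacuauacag
MIRLET7G: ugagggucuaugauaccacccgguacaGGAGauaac
MIRLET7I: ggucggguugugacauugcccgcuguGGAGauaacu

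The motif stood in 9 of these 11 windows (81.8%), and in 15.7% of the 745 human hairpins with a listed 5p arm and a full window. MIRLET7A3 and MIRLET7B had none. A match of letters describes the sequence and does not show binding.

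PTP4A3, the transfected gene, was measured first as a check of the labels. It read 7.92, 8.03 and 7.97 in the control arrays and 10.81, 10.93 and 10.79 in the PRL-3 arrays (log2 intensity), so every PRL-3 array carried the transgene signal. Median intensity ran from 89.8 to 92.9 over the 6 arrays. Log2 values of array pairs correlated, across genes, at 0.986 to 0.996 within groups and at 0.977 to 0.986 between groups. Control 1 and PRL-3 5 stood nearer to each other (0.98627) than control 1 to control 3 (0.98606), so results were also computed without those arrays. Limma called 7.69% of all genes different at a Benjamini-Hochberg adjusted p of 0.05, 4.58% higher and 3.11% lower with PRL-3. In 24.3% of genes the arrays of the groups were fully apart.

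Of the 10 genes, 2 rose with PRL-3, LIN28B and IGF2BP1, 0 fell and 8 did not pass. The 2 that rose make 20% of the set, beside 4.58% of all genes called higher. Both rose at least 2-fold, as did 0.365% of all genes. The set was chosen with earlier results of these data known, so these shares only describe it. In 3 genes, LIN28B, IGF2BP1 and DICER1, the groups did not overlap, higher with PRL-3 in the first 2, beside 12.1% of all genes, and lower in DICER1, beside 12.2%. At an unadjusted p of 0.05 in limma 3 were higher and 2 lower, beside 10.6% of all genes higher and 9.6% lower at that p. An unequal-variance test, in which each gene rests on its own 6 values, called 0 of the 10 after adjustment and 11 genes in the whole table. Before adjustment it took in 3 of the 10, beside 14.5% of all genes. The median difference of the set was 0.12 on the log2 scale, beside -0.015 for all genes.

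**Figure D1:**
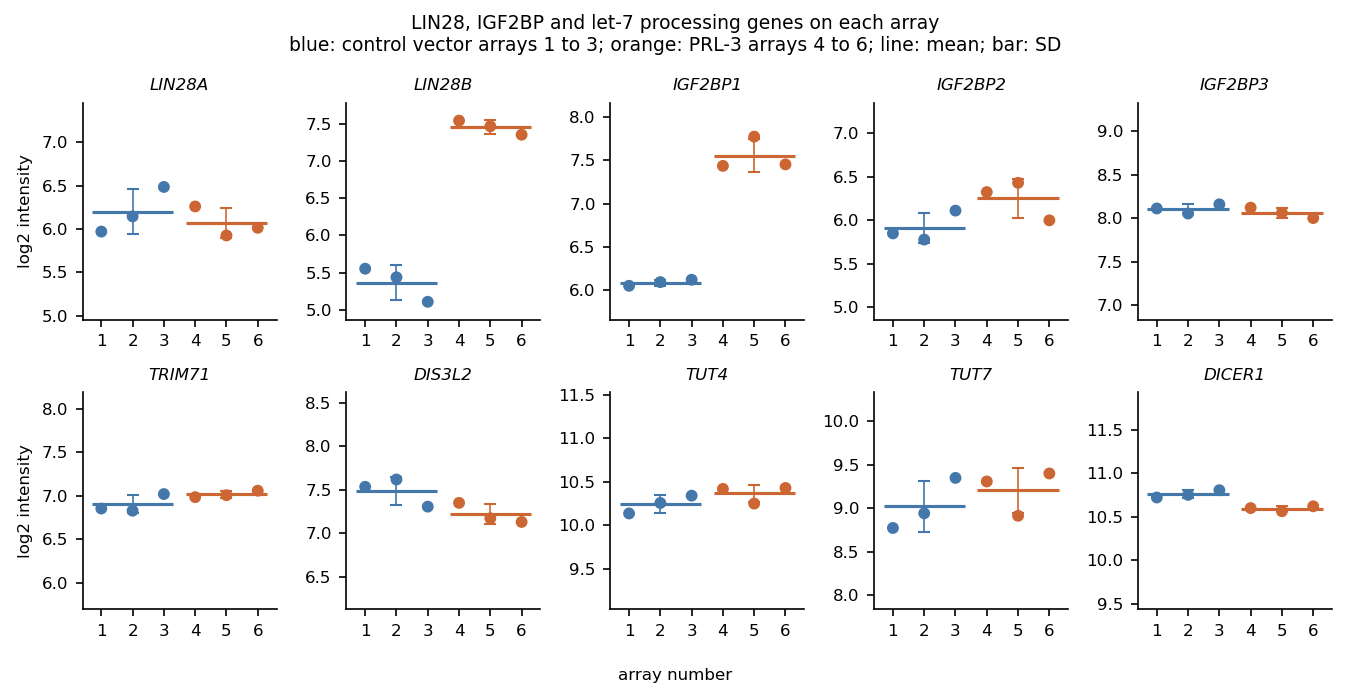
Log2 intensity (y axis) of the 10 genes on each of the 6 arrays (x axis, array number); points are arrays, lines are group means and bars are SD. LIN28B and IGF2BP1 lie above every control array on all 3 PRL-3 arrays, while in 7 of the other 8 genes the groups overlap.

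LIN28B (probe set 8121251), which blocks let-7 maturation, had the largest rise of the set. It read 5.55, 5.44 and 5.11 in control 1, 2 and 3 and 7.54, 7.47 and 7.35 in PRL-3 4, 5 and 6 (log2 intensity). The lowest PRL-3 array stood far above the highest control array, and control 3 was the lowest of all 6. The means were 5.37 ± 0.23 and 7.45 ± 0.10 (SD, n = 3 each), a difference of 2.09 ± 0.12 (log2, SE) or 4.25-fold, with adjusted p = 9.37e-05 in limma. Among the differences of all 18377 genes in the deposited intensities this was rank 6 by size. The table gives no detection call, and the control mean was lower than those of the T cell genes CD8A, CD3E and CD3D (5.49, 5.73 and 5.75), so it was not shown to be above background. The 4.25-fold and its rank therefore describe the deposited intensities, and they understate the change if the control level is background. The exact two-sided permutation test of its 6 values gave p = 0.1, the smallest that 3 arrays against 3 can give. In the control arrays LIN28B lay at the 12.5 percentile of gene levels and in the PRL-3 arrays at the 66.6 percentile. Percentiles set different probe sets side by side, so they only show roughly how dim a probe set was. With 1 array left out the difference ran from 1.96 to 2.18, with adjusted p of up to 0.00216 in limma. The unequal-variance test ended the call, with adjusted p = 0.121.

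LIN28A (probe set 7899167), the paralogue best known from embryonic stem cells, did not pass. It read 5.97, 6.15 and 6.48 in the controls and 6.26, 5.93 and 6.01 with PRL-3, and the groups overlapped. Its difference of -0.13 ± 0.14 (log2, SE) had a 95% interval of -0.46 to 0.19 and adjusted p = 0.696 in limma, and it turned to 0.0087 without control 3. The interval for LIN28B, 1.82 to 2.36, lay wholly above that of LIN28A. The other probe set annotated to LIN28A (8065011) differed by 0.012, with overlapping groups; its number lies far from that of the first, and whether it lies on LIN28A itself was not tested.

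IGF2BP1 (probe set 8008151), a KH-domain protein that binds and shields mRNAs such as that of MYC, was the other gene that rose. It read 6.05, 6.10 and 6.12 in the controls and 7.43, 7.77 and 7.45 with PRL-3 (log2 intensity). The 3 control arrays lay very close together, and PRL-3 5 was the highest. The means of 6.09 ± 0.035 and 7.55 ± 0.19 (SD, n = 3 each) differed by 1.46 ± 0.099 (log2, SE), or 2.75-fold, with adjusted p = 0.000225 in limma. It took rank 22 of all genes by size of difference. The exact permutation test again gave 0.1, its floor. Its level moved from the 28.9 to the 68.6 percentile of genes. Leaving out 1 array gave 1.35 (without PRL-3 5) to 1.52, with adjusted p of up to 0.00364 in limma, and the unequal-variance test gave adjusted p = 0.156. The control mean lay under those of the lymphocyte genes ZAP70 and LCK (6.23 and 6.35) and above those of CD3E and CD3D (5.73 and 5.75). It was thus not shown to be above background, and the 2.75-fold and the rank describe the deposited intensities. Nor were the control means of LIN28A (6.20) and IGF2BP2 (5.91) shown to be above background.

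IGF2BP2 (probe set 8092552), the family member that stays expressed in adult tissues, read 5.85, 5.78 and 6.11 in the controls and 6.32, 6.43 and 5.998 with PRL-3. PRL-3 6 fell below control 3, so the groups overlapped. The difference was 0.34 ± 0.13 (log2, SE), with a 95% interval of 0.039 to 0.64 and adjusted p = 0.187 in limma. It passed with array weights (0.41, adjusted p = 0.0135, limma). Without control 1 and PRL-3 5 together, an alternative added after the data had been seen, it was 0.22 (adjusted p = 0.49).

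IGF2BP3 (probe set 8138566), an oncofetal member of the family, was the steadiest of the set. It read 8.11, 8.05 and 8.16 in the controls and 8.12, 8.06 and 8.002 with PRL-3. The difference of -0.047 ± 0.069 (log2, SE) had a 95% interval of -0.20 to 0.11 and adjusted p = 0.794 in limma. The upper bound for IGF2BP3 lay well under the lower bound of 1.23 for IGF2BP1. The proteins of the family are alike, and how far their probe sets read each other's mRNAs was not tested.

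TRIM71 (probe set 8078435), the RNA-binding ubiquitin ligase also called LIN41 and a classical let-7 target, read 6.85, 6.83 and 7.02 in the controls and 6.98, 7.004 and 7.06 with PRL-3. Its difference was 0.12 ± 0.075 (log2, SE), with adjusted p = 0.476 in limma and a 95% interval of -0.057 to 0.29. Only control 3 reached the PRL-3 arrays.

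**Figure D2:**
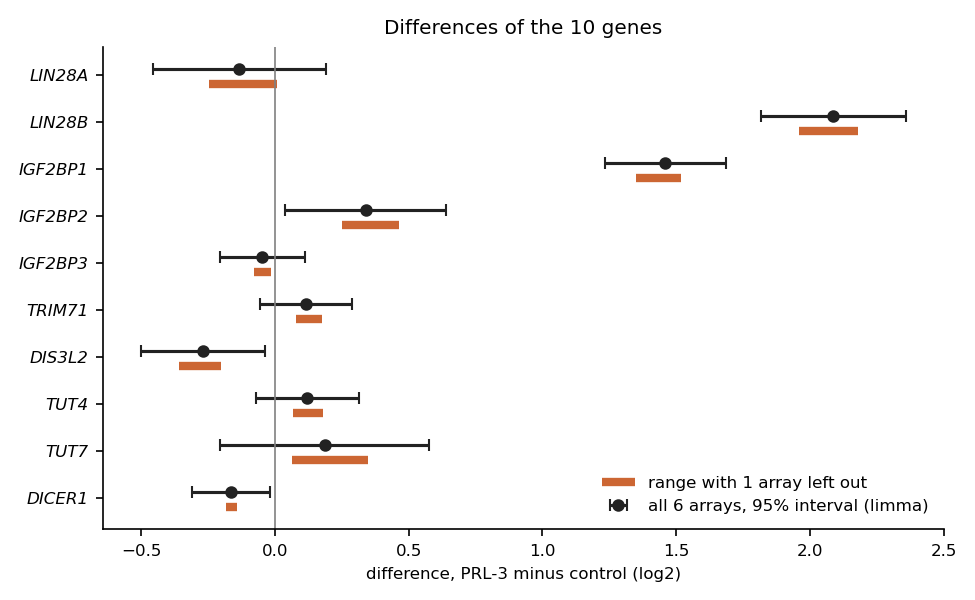
Difference between PRL-3 and control arrays (x axis, log2) for each gene (y axis): black points and bars are the estimate from all 6 arrays with its 95% interval in limma, and orange bars span the estimates with 1 array left out. The interval of LIN28B (1.82 to 2.36) and that of IGF2BP1 (1.23 to 1.69) lie above all of the other 8.

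The enzymes that tail, degrade or cut the let-7 precursor did not pass. TUT4 (probe set 7916185) read 10.14, 10.26 and 10.34 in the controls and 10.42, 10.25 and 10.43 with PRL-3, a difference of 0.12 ± 0.084 (log2, SE; adjusted p = 0.512, limma), which ran from 0.067 without control 1 to 0.18 without PRL-3 5. TUT7 (probe set 8162147), its close relative, read 8.77, 8.94 and 9.35 in the controls and 9.31, 8.91 and 9.40 with PRL-3. In both genes PRL-3 5 was the lowest PRL-3 array and control 1 the lowest control array. TUT7 had the widest spread within groups of the set, with SD of 0.30 and 0.26 (n = 3 each). Its difference of 0.19 ± 0.17 (log2, SE; adjusted p = 0.641, limma) ran from 0.062 without control 1 to 0.35 without control 3, and it passed with array weights (0.35, adjusted p = 0.033, limma).

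DIS3L2 (probe set 8049097), the exonuclease for uridylated precursors, read 7.53, 7.62 and 7.30 in the controls and 7.35, 7.17 and 7.13 with PRL-3. PRL-3 4 lay just above control 3, so the groups overlapped. The difference of -0.27 ± 0.10 (log2, SE) had a 95% interval of -0.50 to -0.037 and adjusted p = 0.176 in limma, and it passed with array weights (-0.34, adjusted p = 0.0111, limma). Without control 2 it was -0.20 (adjusted p = 0.458, limma).

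DICER1 (probe set 7981111), which cuts the precursor, was bright and even. It read 10.72, 10.75 and 10.81 in the controls and 10.60, 10.57 and 10.62 with PRL-3, so every PRL-3 array was below every control array. The difference was small, -0.16 ± 0.064 (log2, SE), and did not pass (adjusted p = 0.191, limma). Such a separation, lower with PRL-3, was seen in 12.2% of all genes.

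The let-7 genes themselves could be read in part. Of the 12 microRNA genes, 10 had a probe set of their own, with control means between 4.58 and 6.46 (log2 intensity), or the 1.08 to 39.7 percentile of genes. These probe sets are annotated to the precursor transcripts, and mature let-7 was not measured. In limma 0 of the 10 passed and 2 had an unadjusted p under 0.05, beside 10.6% of all genes higher and 9.6% lower at that p. The unequal-variance test called 0 after adjustment. MIRLET7F1 passed, lower, with array weights (-0.38, adjusted p = 0.0365, limma). With 1 array left out its difference ran from -0.35 without control 1 to -0.074 without control 2, and that of MIRLET7D from -0.34 to -0.010 without the same arrays. On balance 3 differences were above 0 and 7 below, with a median of -0.063, but those of MIRLET7A2, MIRLET7E, MIRLET7F2 and MIR98, none over 0.12 in size, changed sign in at least 1 alternative.

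Of the 10 let-7 genes, 2 had groups that did not overlap, beside 24.3% of all genes, and they went opposite ways. MIRLET7C read 4.56, 4.65 and 4.54 in the controls and 4.95, 4.95 and 4.77 with PRL-3, a difference of 0.31 ± 0.077 (log2, SE) that just missed the threshold (adjusted p = 0.0517, limma). It passed with an intensity trend and robust variances (adjusted p = 0.0159, limma) and with array weights (adjusted p = 0.0184, limma). It was among the dimmest probe sets of the table. MIRLET7G read 6.09, 6.03 and 6.21 in the controls and 5.72, 5.91 and 5.95 with PRL-3, a difference of -0.25 ± 0.086 (log2, SE; adjusted p = 0.145, limma).

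MIR99AHG, the long transcript that hosts let-7c together with miR-99a and miR-125b-2, rose. It read 6.03, 6.02 and 6.12 in the controls and 7.09, 6.81 and 6.83 with PRL-3, a difference of 0.85 ± 0.091 (log2, SE), with adjusted p = 0.0016 in limma. The adjusted p was 0.172 in the unequal-variance test. Its control mean of 6.06 lay under that of the lymphocyte gene ZAP70 (6.23), so it was not shown to be above background. The probe sets of the other microRNAs that MIR99AHG hosts did not pass: MIR99A differed by -0.057 (adjusted p = 0.816, limma) and MIR125B2 by -0.0028 (adjusted p = 0.99, limma). MIRLET7BHG, host of let-7a-3 and let-7b, differed by -0.0036 (adjusted p = 0.991, limma). Among the 19 measured let-7 genes, neighbours in the same clusters and hosts, MIR99AHG was the 1 that passed (5.26%, beside 7.69% of all genes).

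**Figure D3:**
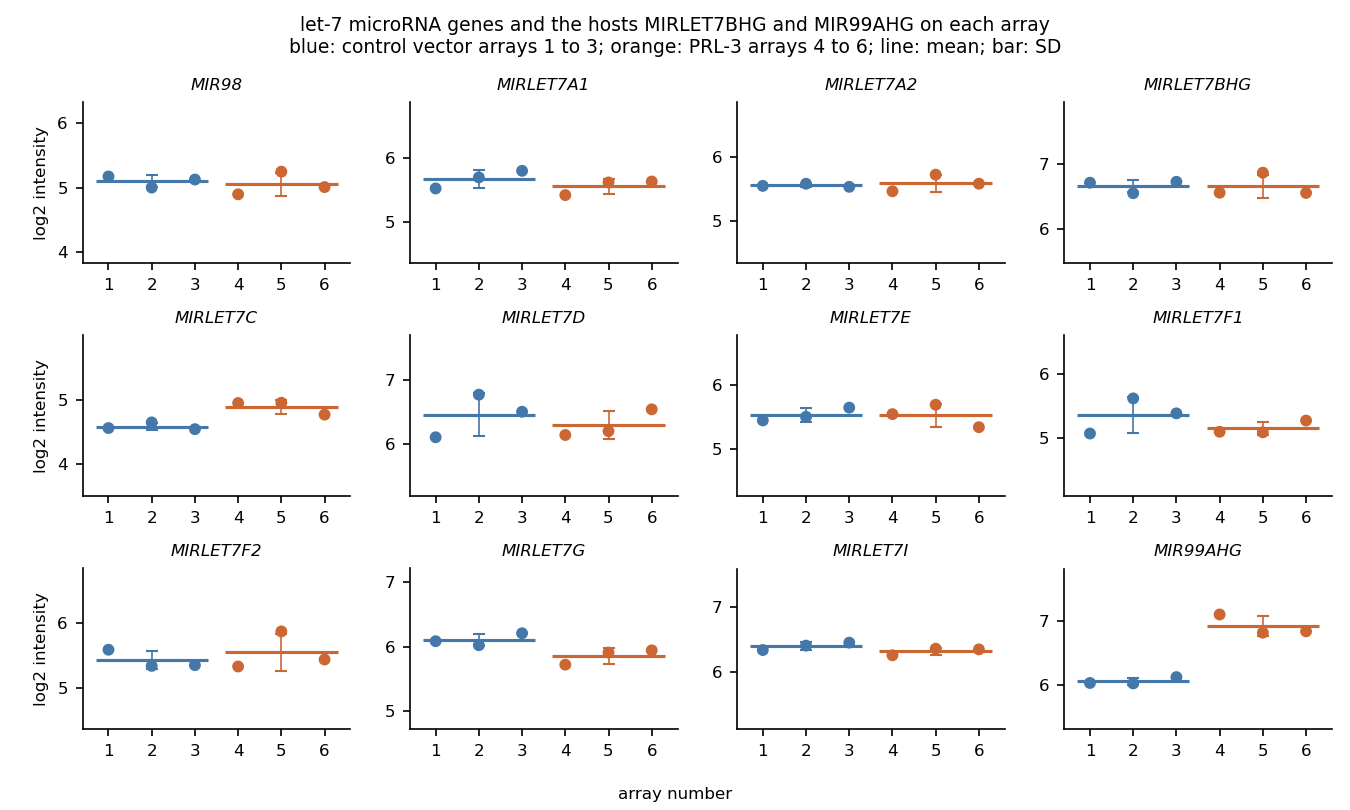
Log2 intensity (y axis) of 10 let-7 family microRNA genes and the hosts MIRLET7BHG and MIR99AHG on each of the 6 arrays (x axis, array number), with group means as lines and SD as bars. The PRL-3 arrays are above the controls for MIR99AHG (6.81 to 7.09 against 6.02 to 6.12) and by less for MIRLET7C, and below them for MIRLET7G.

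The general microRNA pathway was read next. Of its 30 measured genes for microRNA processing and silencing, 5 fell, 0 rose and 25 did not pass, beside 3.11% of all genes called lower, and the median difference was -0.097. In limma 2 were higher at an unadjusted p of 0.05 (6.67%, beside 10.6% of all genes) and 8 were lower (26.7%, beside 9.6%). Array weights, which called 2122 genes higher and 2303 lower in the whole table, gave 3 higher and 10 lower in this list. Without control 2, PRL-3 4, PRL-3 5 or PRL-3 6 the number lower was 3, and 1 was higher without control 3. The unequal-variance test called 0 of the 30 after adjustment and 8 before it, beside 14.5% of all genes before it.

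DGCR8, the RNA-binding partner that guides DROSHA to primary microRNA transcripts, fell most. It read 8.24, 8.04 and 7.88 in the controls and 7.14, 7.39 and 7.16 with PRL-3, a difference of -0.82 ± 0.11 (log2, SE; adjusted p = 0.00388, limma), which was 1.77-fold lower. DROSHA itself, the nuclease, differed by -0.012 (adjusted p = 0.956, limma), and this turned to 0.0068 without control 1. The other 4 that fell were TNRC6A, a scaffold of the silencing complex (-0.45), the helicase genes DDX5 (-0.43) and DDX17 (-0.28), cofactors of DROSHA, and the helicase gene DHX9 (-0.39). Their adjusted p in limma ran from 0.00779 for DDX5 to 0.0326 for DDX17. DDX17 lost its call in all 6 fits with 1 array left out (highest adjusted p = 0.136) and DHX9 in 4 of the 6 (highest adjusted p = 0.103). XPO5, which exports precursors from the nucleus, differed by -0.22 (adjusted p = 0.27, limma) and passed with array weights (-0.31, adjusted p = 0.00807, limma). AGO2, which carries the mature microRNA, differed by -0.16 (adjusted p = 0.724, limma), from -0.0091 without control 1 to -0.32 without control 3.

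Relatives of TUT4, TUT7 and DIS3L2 did not pass either. Of 27 measured terminal nucleotidyltransferases and 3′ exonucleases, exosome subunits among them, 0 passed in limma and 0 passed the unequal-variance test. At an unadjusted p of 0.05 in limma 1 was higher (3.7%, beside 10.6% of all genes) and 4 were lower (14.8%, beside 9.6%). Array weights gave 3 higher and 5 lower, and 2 were lower without control 3 and without PRL-3 5. Their differences ran from -0.71 to 0.28, with a median of 0.015. Of 27 measured relatives with cold shock, KH, zinc knuckle or TRIM-NHL domains, 1 rose and 0 fell (3.7% called, beside 7.69% of all genes; 4 higher and 3 lower with array weights). It was ZCCHC7, a zinc knuckle protein of nuclear RNA decay (0.42 ± 0.089, log2, SE; adjusted p = 0.0289, limma), which did not pass after quantile normalization (adjusted p = 0.052). It also lost its call without control 1, control 2, PRL-3 4 or PRL-3 6, with adjusted p of up to 0.123.

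Published let-7 targets split. Of 53 measured targets outside the set, 4 rose, 1 fell and 48 did not pass. The 9.43% called lie near the 7.69% of all genes, and the median difference was -0.018. In limma 7 were higher at an unadjusted p of 0.05 (13.2%, beside 10.6% of all genes) and 3 were lower (5.66%, beside 9.6%). The unequal-variance test called 0 of the 53 after adjustment. Array weights gave 7 higher and 7 lower, and 2 were higher without control 1, PRL-3 4 or PRL-3 6 and 2 lower without control 3. The rises were FAS, a death receptor (0.91), MYCN, a MYC family transcription factor (0.56), ACVR1C, an activin receptor (0.51), and LRIG3, a membrane protein (0.46), the last named after its value was seen. CDK6, a G1 kinase, dropped by 0.62. Adjusted p in limma ran from 0.0017 for FAS to 0.0406 for LRIG3, and with 1 array left out ACVR1C lost its call in 4 of the 6 fits and LRIG3 in 5 (highest adjusted p = 0.0930 and 0.147).

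MYCN read 6.83, 6.88 and 6.92 in the controls and 7.504, 7.49 and 7.32 with PRL-3, and the groups were apart (0.56 ± 0.076, log2, SE; adjusted p = 0.0043, limma). MYC, far brighter, read 11.21, 11.09 and 10.66 in the controls and 10.40, 10.97 and 10.55 with PRL-3. The MYC groups overlapped, and the difference of -0.35 did not pass (adjusted p = 0.337, limma), except with array weights (-0.55, adjusted p = 0.0054, limma). HMGA2, IGF2 and H19, well-known partners of this axis, lay on probe sets with several gene symbols and were not analysed here.

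Of 29 measured mRNAs reported as clients of IGF2BP proteins, 0 rose and 2 fell in limma (6.9% called, beside 7.69% of all genes), and 0 passed the unequal-variance test. At an unadjusted p of 0.05 in limma 0 were higher and 4 lower (13.8%, beside 9.6% of all genes). Array weights gave 7 lower, and 1 was lower without control 1, control 2, PRL-3 4 or PRL-3 6. The 2 that fell were CDK6, which also stands among the let-7 targets, and BTRC (-0.39, adjusted p = 0.0175, limma), a ubiquitin ligase subunit whose mRNA IGF2BP1 is known to stabilise. BTRC lost its call in 4 of the 6 fits with 1 array left out (highest adjusted p = 0.0859). The median difference of the clients was -0.032.

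**Figure D4:**
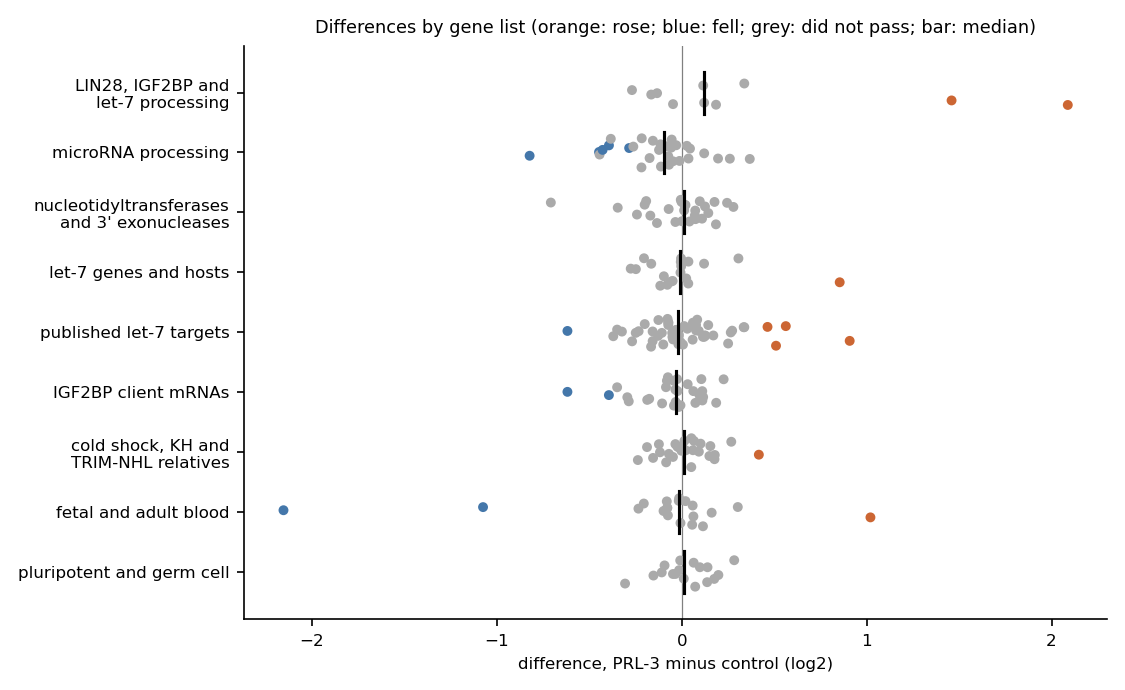
Difference between PRL-3 and control arrays (x axis, log2) for every measured gene of 9 lists (y axis); orange points rose and blue points fell at adjusted p 0.05 in limma, grey points did not pass, and bars are list medians. List medians lie between -0.097 and 0.12, and LIN28B and IGF2BP1 stand to the right of all the other points shown.

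Genes that tell fetal from adult blood were read beside LIN28B, which is known to favour the fetal programme. The list held no gene of gamma globin, the fetal form. Of 20 measured, 1 rose and 2 fell (15% called, beside 7.69% of all genes), and array weights gave 3 higher. HBE1, embryonic epsilon globin, read 9.51, 9.52 and 9.72 in the controls and 10.74, 10.55 and 10.53 with PRL-3. Its difference was 1.02 on the log2 scale (adjusted p = 0.000732, limma). HBB, adult beta globin, read 9.90, 9.82 and 9.88 in the controls and 7.68, 7.75 and 7.71 with PRL-3, a difference of -2.15 (adjusted p = 3.24e-06, limma). HBD, delta globin, fell too (-1.07). It is near-identical to HBB, and their probe sets may not tell the mRNAs apart. The unequal-variance test called 2 of the 20 after adjustment, HBB and HBD (adjusted p = 0.00546 and 0.0463), and not HBE1 (adjusted p = 0.0967). ARID3A, a let-7 target in the fetal programme (0.11, adjusted p = 0.621, limma), and BCL11A, a repressor of fetal globin (-0.078, adjusted p = 0.728, limma), did not pass.

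The cell type was checked against marker lists. GATA1, the erythroid transcription factor, had a log2 intensity of 8.14 ± 0.28 with the control vector and 8.06 ± 0.34 with PRL-3 (SD, n = 3 each). Among 16 measured markers of TF-1 identity 2 rose, KIT (1.01) and CSF2RA (0.27), and TFRC, the transferrin receptor gene, fell (-0.52), so 18.8% were called beside 7.69% of all genes. In limma 5 of the 16 were higher at an unadjusted p of 0.05 (31.2%, beside 10.6% of all genes) and 5 were lower (31.2%, beside 9.6%). The unequal-variance test called 1 of them after adjustment. Array weights gave 5 higher and 6 lower in this list. Without control 3 the number lower was 4 and without PRL-3 5 it was 2, and leaving out any array but PRL-3 5 gave 1 higher. CSF2RA did not pass in any of the fits with 1 array left out (highest adjusted p = 0.149, limma). LIN28 genes also mark pluripotent and germ cells, so those markers were read as well. Of 17 measured, 0 passed in limma and 0 passed the unequal-variance test. At an unadjusted p of 0.05 in limma 2 were higher (11.8%, beside 10.6% of all genes), SALL4 (0.28, adjusted p = 0.0966) and DAZL (0.18, adjusted p = 0.179), and 1 was lower (5.88%, beside 9.6%), GDF3 (-0.31, adjusted p = 0.063). Groups did not overlap in SALL4 and DAZL, higher (beside 12.1% of all genes), and in GDF3, DDX4 and MAGEA4, lower (beside 12.2%). Array weights gave 2 higher and 1 lower, and 1 each way passed without control 3. Their summed intensity was 1305 to 1359 in control and 1335 to 1427 in PRL-3 arrays. Among 15 lymphocyte markers and 15 fibroblast, epithelial and endothelial markers 0 passed in limma and 0 passed the unequal-variance test. Of the lymphocyte markers 0 had an unadjusted p under 0.05 in limma. Of the other list 1 was higher at that p (6.67%, beside 10.6% of all genes) and 2 were lower (13.3%, beside 9.6%). The table has no detection call, so no marker could be said to be at 0.

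The closest patterns over the 6 arrays were sought among the 85 other genes that differed by at least 1 on the log2 scale. All of them separate the groups, so Pearson's r is high throughout and is given as a description. LIN28B was most like AHR, the aryl hydrocarbon receptor gene (r = 0.999, difference 1.15), followed by ANTXR2, CTH, H2BC12 and KIT (r = 0.996 for the last). IGF2BP1 was most like GPRC5B (r = 0.996, difference 1.11), followed by MAP1B, TUSC3, PTP4A3 and SCRN1. PTP4A3, the transgene, had r = 0.993 with IGF2BP1.

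**Figure D5:**
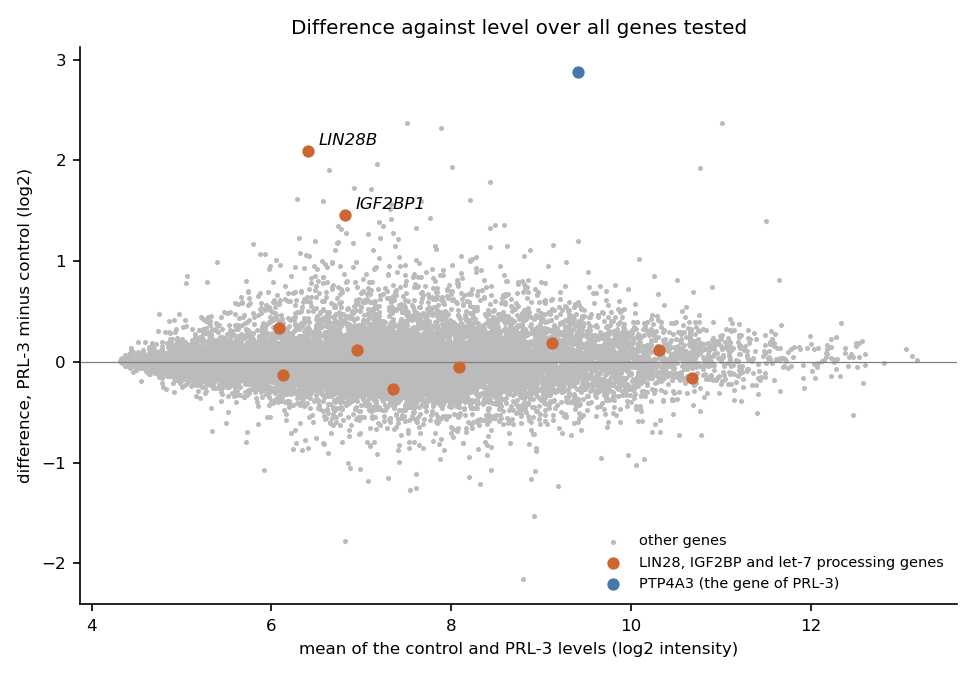
Difference between PRL-3 and control arrays (y axis, log2) against the mean of the group levels (x axis, log2 intensity) for all 18377 genes tested; orange points are the 10 genes of the set and the blue point is PTP4A3. LIN28B (2.09) and IGF2BP1 (1.46) stand well above the bulk of genes of like level, and the other 8 lie within it.

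Genes next to the set on the chromosomes were read to see whether whole regions moved. Of the 40 measured neighbours, 2 on each side of each gene, 4 passed in limma (10%, beside 7.69% of all genes), 1 higher and 3 lower. LIN28B lies on chromosome 6, and its nearest measured neighbours were HACE1 (0.24, adjusted p = 0.0944, limma) and POPDC1 (0.11, adjusted p = 0.555, limma). Next came POPDC3 (0.13, adjusted p = 0.362, limma) and, on the other side, GRIK2 (-0.0061, adjusted p = 0.981, limma). The groups were fully apart, higher with PRL-3, in HACE1 and POPDC3, beside 12.1% of all genes. They overlapped in POPDC1 and GRIK2. IGF2BP1 lies on chromosome 17 between GIP (-0.10, adjusted p = 0.583, limma) and B4GALNT2 (-0.075, adjusted p = 0.69, limma). The 4 that passed were CCR4 beside TRIM71 (-1.15), CLMN near DICER1 (0.60), ISCA1 beside TUT7 (-0.35) and TRA2B near IGF2BP2 (-0.31), named after their values were seen.

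LIN28B is known to be bound by MYC proteins, which favour the palindrome CACGTG, so the promoter windows of the set were searched for it. Of the genes of these proteins, MYCN rose here and MYC, far brighter, did not pass. RefSeq promoter windows matched 7 of the 10 genes with 13 start sites, and the 250 bases before each start were searched. LIN28A, IGF2BP1 and TUT4 had no window, so they were not searched. Of the LIN28B windows, that of the upstream start (GC content 73.6%) had no match. That of the inner start, chr6:104956857-104957106 on the plus strand of GRCh38.p14 (GC content 38.4%), had 1, in capitals, which begins 47 bases before the start.
LIN28B inner start: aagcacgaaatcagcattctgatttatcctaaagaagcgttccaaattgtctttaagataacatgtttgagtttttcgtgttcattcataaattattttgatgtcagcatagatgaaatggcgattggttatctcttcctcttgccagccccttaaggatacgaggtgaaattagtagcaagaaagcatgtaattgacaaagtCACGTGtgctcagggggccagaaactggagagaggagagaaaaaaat
IGF2BP3, whose level did not pass, had 2 matches in its window, and the other windows searched had none. CACGTG, which reads the same on both strands, stood in 6.34% of all 35116 windows of that length. AGATAA, also searched, on either strand, stood in 9.17% of them. It had 2 matches in the printed LIN28B window and 1 each in some DICER1 windows. The arrays do not tell which start site LIN28B used. A match of letters does not show binding, and whether a MYC protein acts on LIN28B in these cells was not tested.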

How the data were processed

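RNA of 6 TF-1 samples was measured on a whole-transcript expression array, from biotin-labelled cDNA made with Nugen Applause and Encore kits, per the labels' protocols. The deposited table, as the authors made it, gives for each of 28869 probe sets a linear intensity on every array. How probes were summarised and arrays normalized is not given in the sources used here. Such a step can remove a shift shared by most genes. Log2 of the intensity was taken with no offset.

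The platform annotation gave 1 symbol for 19310 probe sets, several for 1752 and none here for 7807. Of the first, 19279 matched a RefSeq gene (GRCh38.p14). The brightest probe set stood for each of 18377 genes. Groups were compared over all genes with limma 3.58.1 in R 4.3.3 (lmFit, eBayes, two-sided, Benjamini-Hochberg, threshold 0.05). Errors after a difference are moderated standard errors. The test was tried on simulated data. Figures used matplotlib 3.10.9 in Python 3.11.15. Precision is limited by the number of arrays.

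The genes and lists were chosen with earlier results of these data known. The rule named all 10 genes, the PTP4A genes, the let-7 genes, 11 pathway genes, up to 4 of each list with the largest differences past the threshold, and the 5 nearest patterns. The alternatives were quantile normalization, a median shift, array weights, robust variances with an intensity trend, an offset of 16, filters on dim genes (log2 intensity of at least 6, and above the median), averaging the probe sets of a gene, testing all probe sets, an unequal-variance test and leaving out each array. Leaving out control 1 and PRL-3 5 together was added after the data had been seen. The loop window of 1 hairpin is not reported here.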

Additional observations from a re-analysis of the deposited data

How the results depend on the processing

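LIN28B and IGF2BP1 stayed past the threshold in every alternative that tested them except the unequal-variance test, at 1.74 to 2.18 and 1.27 to 1.52 on the log2 scale; the lowest values came with an offset of 16. Of 167 values of the 10 genes under the alternatives, 160 kept their direction and side of the threshold. The number of the 10 called was 4 higher and 1 lower with array weights, 1 higher among genes above the median level, which leaves out LIN28B, and 0 in the unequal-variance test. Leaving out 1 array gave 2 higher and 0 lower each time. LIN28A, LIN28B and IGF2BP2 have no value among genes above the median level. Over all genes 842 were higher and 571 lower. Array weights gave 2122 and 2303, the unequal-variance test 7 and 4, and leaving out 1 array 388 to 792 and 178 to 747.

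Signs turned for values near 0. Array weights gave IGF2BP3 0.0023, MIRLET7A2 -0.035 and MIRLET7BHG 0.014. A shift to 1 median gave MIRLET7E 0.0055, MIRLET7BHG 0.0084 and DROSHA 2.2e-06, and quantile normalization gave MIRLET7E 4.5e-05. Without control 1 and PRL-3 5 together MIRLET7A2 was -0.034 and DROSHA 0.0035. With 1 array left out the ranges that crossed 0 were LIN28A -0.25 to 0.0087, PTP4A1 -0.018 to 0.14, MIRLET7A2 -0.031 to 0.098, MIRLET7E -0.089 to 0.085, MIRLET7BHG -0.11 to 0.049, MIR98 -0.15 to 0.028, MIRLET7F2 -0.043 to 0.23 and DROSHA -0.036 to 0.0068. The cause was not tested. No paired analysis was possible because the groups share no replicate number. Probe sets near the floor of the table, MIRLET7C among them, can understate a change.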
